A study of Drosophila melanogaster with 4 samples.

Results

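The response to gamma irradiation was followed in Kc167 cells that had been grown with an ecdysone agonist. Kc167 is a Drosophila melanogaster line of hemocyte-like cells that was established from embryos. The combined array (ecdysone + gamma-irradiated) held RNA from cells that had received 10 µM muristerone A, a plant ecdysteroid that activates the ecdysone receptor, for 72 h of culture. These cells were then exposed to 280 Gy of gamma rays and left for another 90 min before lysis. The ecdysone array held RNA from cells with the same hormone and the same times but a mock treatment in place of the rays. A second pair without hormone consisted of an irradiated array, with 280 Gy, and a control array, with neither treatment. Each of the 4 conditions had 1 array, so no value below has a replicate, no test was made, and sizes describe these arrays only. In RNA from whole cultures, fewer cells of a kind and less RNA per cell cannot be told apart.

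The probe sets described here were those, controls left out, with a signal of at least 500 units on the combined array, the ecdysone array or both. They were thus selected on these 2 signals. There were 1919 of them among 13966, and 1629 matched exactly 1 gene, which gave 1576 of the 10844 genes on the array. Of the 1919 probe sets, 994 reached 500 on both arrays, 489 on the combined array alone and 436 on the ecdysone array alone. The difference between the arrays is given as the log2 of combined over ecdysone, after signals under 119 were raised to 119. "At least" before a fold other than 2-fold marks a gene whose lower array lay under that floor. "At least 2-fold" gives the size limit and does not mark such a gene. The same signals chose the probe sets and give the ratios, and a probe set that passed on 1 array alone had to be higher on it. Counts and medians over the members are therefore a description and not evidence of a response.

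Ionizing radiation breaks DNA strands. In Drosophila the checkpoint kinases of the ATM, ATR and Chk2 families pass the signal to p53, a transcription factor that turns on cell death genes and genes of break repair. Radiation also generates reactive oxygen species, which thioredoxins, peroxiredoxins and glutathione-dependent enzymes remove. Ecdysteroids are known to stop the division of Kc cells and to change their shape, so the hormone-treated cells met the rays in another state than untreated ones.

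The arrays shared 1 chip lot, 1 scan day and 1 fluidics station. Modules 1 and 2 of the station held the irradiated and combined arrays, and modules 3 and 4 the control and ecdysone arrays, so module and irradiation cannot be told apart. Of 9 spiked bacterial controls, 8 were lower on the combined than on the ecdysone array, with a mean log2 ratio of -0.44. Scaling to these controls would add 0.44 to the log2 ratio of a probe set above the floor on both arrays, and scaling to a common median would add 0.14. Members were chosen anew under each scaling, so a list's median after another scaling can cover other genes. The log2 difference of the 3′ and 5′ control probe sets was 1.81 on the combined and 0.82 on the ecdysone array for GAPDH. The same difference was -0.47 on the combined and 0.27 on the ecdysone array for actin, and -0.34 on the combined and 0.19 on the ecdysone array for eIF-4a. It was thus higher on the combined array for 1 of the 3 transcripts and lower for the others. Without hormone it was higher on the irradiated than on the control array for each transcript. The values were 1.49 and 0.52 for GAPDH, 0.93 and -0.29 for actin, and 0.58 and 0.01 for eIF-4a, in that order. What these controls contribute to the ratios below was not tested. The hormone label was looked at in 1 gene, picked after its values were seen. Eip78C, an ecdysone-induced nuclear receptor gene, had 947.8 units on the combined and 1848 on the ecdysone array. It had 47.9 on the irradiated and 32.0 on the control array. Ecdysone response genes did not all follow it. br had 62.5 units on the ecdysone and 244.8 on the control array, and vri had 36.9 and 353.2 in the same order.

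Among the members, more probe sets were higher than lower on the combined array. Of the 1919 members, 323 (16.8%) were at least 2-fold higher on the combined array and 228 (11.9%) were at least 2-fold lower. Over all 13966 probe sets the order was the opposite, with 8.55% higher and 9.55% lower, and at a signal limit of 250 in place of 500 there were 1111 higher and 1240 lower. The median log2 ratio of the members was 0.15, with quartiles of -0.43 and 0.71. Among the 994 members at 500 or more on both arrays, 61 (6.14%) were at least 2-fold higher and 16 (1.61%) at least 2-fold lower. The excess of higher over lower ratios also depended on the scaling: 58.6% of the members past 2-fold were higher as deposited, 72.1% with a common median, 53.8% with quantile normalization and 89.4% after scaling to the spiked controls.

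The balance also moved with signal. Where the higher of both signals lay between 500 and 1000 units, 17.2% of 1292 members were at least 2-fold higher and 15.6% lower, with a median log2 ratio of 0.04. Between 2000 and 4000 units 18.2% of 121 members were higher and 4.96% lower, with a median of 0.31. At 8000 units or more 8.43% of 83 members were higher, none was lower by 2-fold, and the median was 0.46. Of the 323 higher members, 76 lay under the floor on the ecdysone array, and of the 228 lower members 58 lay under it on the combined array.

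**Figure D1:**
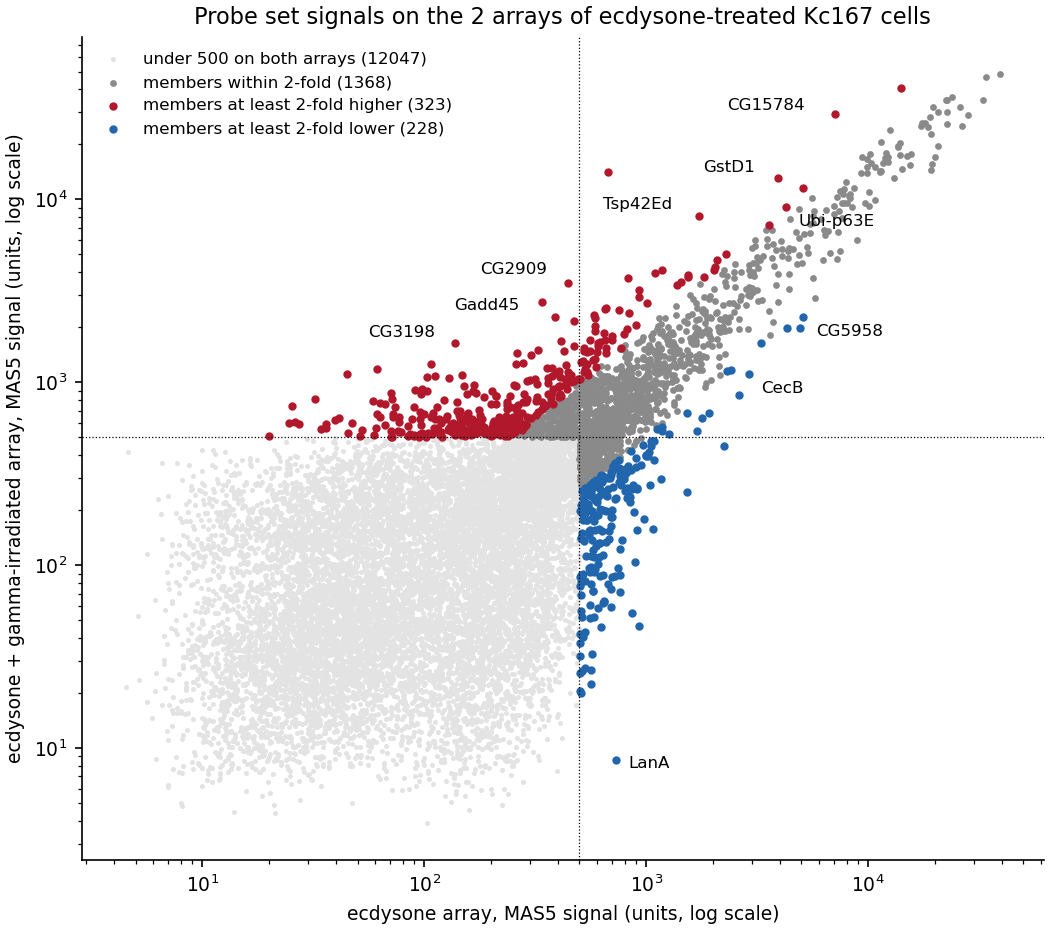
Signal of each of the 13966 probe sets on the combined array (vertical, log scale) against the ecdysone array (horizontal, log scale), in MAS5 units, with dotted lines at 500. Red points are the 323 members at least 2-fold higher on the combined array and blue points the 228 at least 2-fold lower. At 8000 units or more no member is blue, and the names mark genes given in the text.

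The list of genes known to depend on p53 after irradiation, which also holds p53 itself, stood at the top of the gene lists. Of its 11 genes with a probe set of their own, 7 reached 500 units, p53 among them. All 7 were at least 2-fold higher on the combined array, with a median log2 ratio of 2.31. Over the 1576 genes among the members the median was 0.14, with 17.7% at least 2-fold higher and 12.4% lower. Of the 7 genes, 5 passed on the combined array alone and so had to be higher there. The other 4 genes of the list stayed under 500 on both arrays: the killing genes grim (-1.52) and skl (-0.74) and the genes Irbp (0.59) and egr (0.65). Over all 11 the median was 1.34 and of the 10844 genes of the array 9.16% were at least 2-fold higher and 10.2% lower. The members' median without hormone was 0.70, with 2 of the 7 at least 2-fold higher, namely rad50 and p53 itself. Of the 1576 genes 13.5% were higher and 10.2% lower there.

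Gadd45, which encodes a stress sensor that feeds the JNK and p38 kinases, had 2766 units on the combined array against 338.8 on the ecdysone array. Without hormone it had 1727 on the irradiated and 1449 on the control array. The ecdysone array was thus the low one of the 4, and the 8.16-fold difference of the hormone pair compared with a log2 ratio of 0.25 in the other pair. rad50 and mre11 encode the core of the complex that binds broken DNA ends. rad50 had 865.5 units on the combined and 155.8 on the ecdysone array, and 562.0 on the irradiated and 216.6 on the control array. mre11 had 1310 on the combined and 519.1 on the ecdysone array, and 1172 on the irradiated and 722.1 on the control array. Both irradiated arrays lay above both unirradiated ones for each of these genes.

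Ku80, a subunit of the end-joining factor Ku, had 779.0 units on the combined and 279.2 on the ecdysone array, a log2 ratio of 1.48, against 403.3 on the irradiated and 289.9 on the control array. RnrL, the large subunit of ribonucleotide reductase, which makes DNA precursors, had 629.4 on the combined and 95.9 on the ecdysone array, at least 5.29-fold. Its control array stood at 434.1, well above the ecdysone array. Corp encodes a regulator of p53 that is itself a p53 target. It had 590.9 units on the combined array and 27.2 on the ecdysone array, at least 4.97-fold, but 159.3 on the irradiated and 180.8 on the control array. The combined array alone was high, and the log2 ratio without hormone was -0.18. p53 itself, which the rule for naming genes did not pick and which was named after its values were seen, had 1145 units on the combined and 543.8 on the ecdysone array, and 943.3 on the irradiated and 279.1 on the control array. Both pairs were past 2-fold for p53, at log2 ratios of 1.07 with hormone and 1.76 without.

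**Figure D2:**
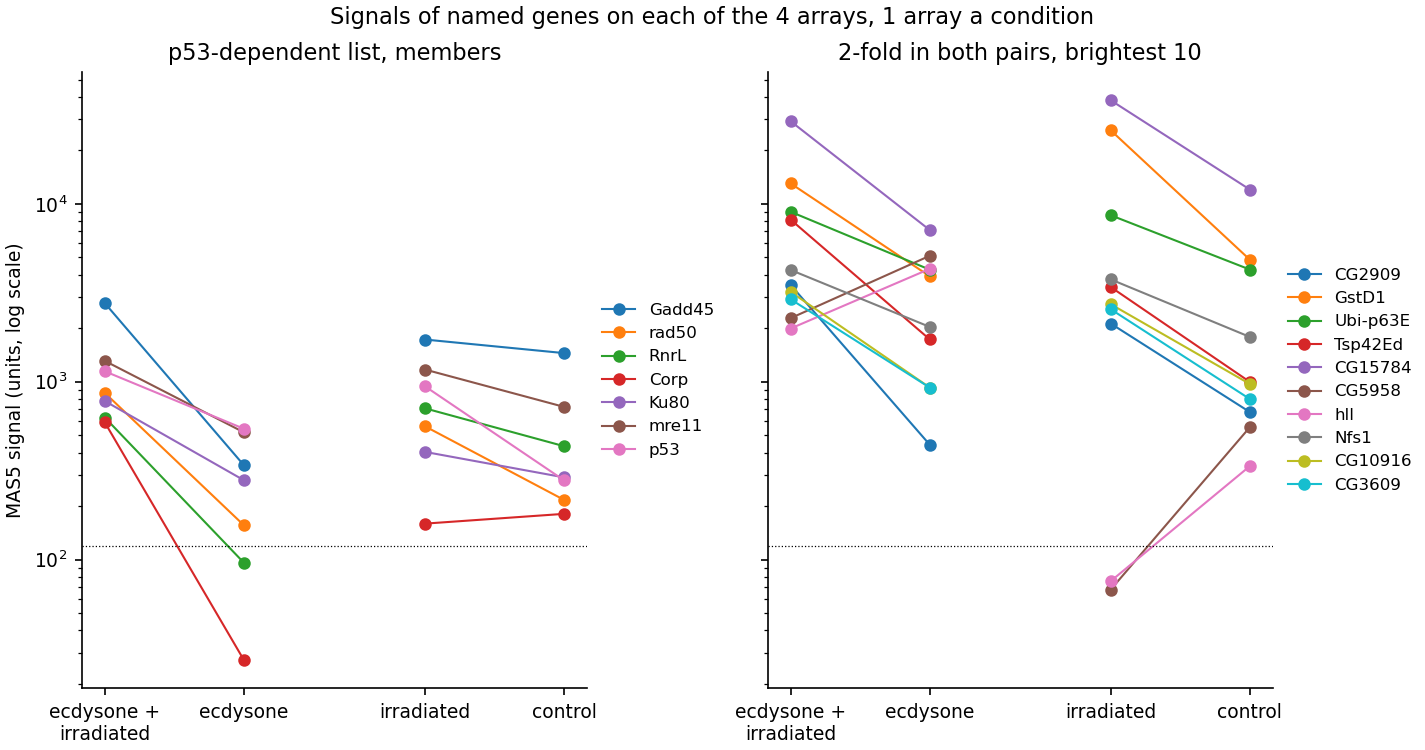
MAS5 signal (vertical, log scale) on each of the 4 arrays, with a line joining the arrays of a pair and a dotted line at the floor of 119 units. Left, the 7 members of the p53-dependent list, all higher on the combined than on the ecdysone array, with Gadd45 and Corp nearly level in the pair without hormone; right, the 10 genes chosen as the brightest past 2-fold the same way in both pairs, of which CG5958 and hll were lower in both.

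The wider list of checkpoint and repair genes had 6 members of 29 genes, and 4 of the 6 passed on the combined array alone. Beside rad50, Ku80 and mre11, hay was higher: it encodes the XPB helicase of the TFIIH complex and had 627.5 units on the combined and 116.6 on the ecdysone array, at least 5.27-fold. Ercc1, a subunit of a repair endonuclease, was the fifth past 2-fold, at 1.20. The sixth member, the replication clamp gene PCNA, was at 0.03. Over all 29 genes, 6 were at least 2-fold higher, 2 were at least 2-fold lower and the median was 0.03. The kinase genes mei-41 (ATR), tefu (ATM) and lok (Chk2) stayed under 500 units on both arrays.

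Of the genes of glutathione and thioredoxin chemistry some were higher. All 8 members of the glutathione S-transferase family passed 500 on both arrays, and 3 of them were at least 2-fold higher, with a median log2 ratio of 0.78. These enzymes join glutathione to reactive molecules. GstD1 had 13040 units on the combined and 3919 on the ecdysone array, and 25936 on the irradiated and 4856 on the control array. GstE6 had 2054 on the combined and 903.5 on the ecdysone array, and 1606 on the irradiated and 368.4 on the control array. Both irradiated arrays lay above both unirradiated ones for GstD1 and GstE6. GstD3 was at a log2 ratio of 1.31 with hormone and 0.84 without. GstD3 and GstE6 dropped under 2-fold with quantile normalization. The family's median without hormone was 1.39, larger than with it, and GstO2 (-0.37) and GstO3 (-0.42) were on the lower side with hormone. Over all 34 genes of the family the median was 0.00, with 3 at least 2-fold higher and 2 lower.

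Of 8 antioxidant members, 4 were at least 2-fold higher and none lower, with a median of 1.00. Of the 5 members that passed the signal limit on both arrays, 2 were at least 2-fold higher. Gclc, the catalytic subunit of the enzyme that starts glutathione synthesis, had 706.4 units on the combined and 176.1 on the ecdysone array, a 4.01-fold difference, and 672.3 on the irradiated and 421.2 on the control array. Trxr1, thioredoxin reductase, had 3840 on the combined and 1541 on the ecdysone array, and 2282 on the irradiated and 1510 on the control array. Trx2, a thioredoxin, was at 1.03 with hormone and 2.09 without. Prx3, a mitochondrial peroxiredoxin, was at 1.23 with hormone but at -0.37 without. Gclc and Prx3 passed on the combined array alone and so had to be higher there. Trxr1 and Trx2 dropped under 2-fold with quantile normalization. Catalase (Cat) was at -0.14, the mitochondrial superoxide dismutase gene Sod2 at -0.60 and the malic enzyme gene Men at -0.90. Men passed on the ecdysone array alone and so had to be lower on the combined array. Over all 18 genes of the list the median was 0.51, with 7 at least 2-fold higher and 1 lower.

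The largest ratio of any member belonged to a probe set that is shared by the peroxiredoxin genes Prx6b and Prx6c and by CG12896, and that was singled out after its values were seen. It had 14074 units on the combined array against 673.2 on the ecdysone array, a log2 ratio of 4.39. Without hormone it had 1506 on the irradiated and 264.9 on the control array, a log2 ratio of 2.51. The combined array was above the other 3 arrays, and the probe set does not show which of the 3 genes gave the signal.

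Genes of iron storage and cytochrome P450 enzymes showed no common direction. The ferritin subunit genes Fer2LCH (0.80) and Fer1HCH (0.56) were on the higher side and the metallothionein gene MtnA (-0.80) on the lower side, and none of the 4 members of this list was past 2-fold. Its median of 0.01 turned to -0.14 with quantile normalization. Of 8 P450 members, Cyp4e2 was at least 2-fold higher, with 2499 units on the combined and 751.7 on the ecdysone array and 734.7 on the irradiated and 373.8 on the control array. Cyp12d1-d was lower at -1.32, and Cyp6a2 was at least 4.31-fold lower, with 52.4 units on the combined and 512.5 on the ecdysone array. The list's median was 0.24, and Cyp12d1-d was within 2-fold after scaling to the spiked controls. Over all 81 P450 genes 4 were at least 2-fold higher and 10 lower, with a median of 0.00.

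Among genes that mark proteins for breakdown, 4 of 12 ubiquitin list members were at least 2-fold higher and none lower, with a median of 0.52. Ubi-p63E, a polyubiquitin gene, had 9034 units on the combined and 4268 on the ecdysone array, and 8635 on the irradiated and 4273 on the control array. The irradiated arrays were close to each other and the unirradiated arrays were too. Its log2 ratio of 1.08 was under 2-fold with quantile normalization. Cul3, the scaffold of a ubiquitin ligase, was at 2.03, the conjugating enzyme gene Ubc2 at 1.72 and Nedd8, which encodes a ubiquitin-like modifier of cullins, at 1.22. Cul3, Ubc2 and Nedd8 passed on the combined array alone, and of the 7 members over 500 on both arrays 1 was past 2-fold. Over all 16 genes of the list 4 were at least 2-fold higher and none lower, with a median of 0.40.

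The proteasome degrades proteins that carry ubiquitin chains. Of 21 proteasome members, 1 was at least 2-fold higher and 2 lower, and the median of 0.21 became -0.02 with quantile normalization. Over all 39 proteasome genes 3 were at least 2-fold higher and 4 lower, with a median of 0.00. Prosbeta7, of the catalytic core, had 1653 units on the combined and 619.2 on the ecdysone array. Rpn12 and Rpt2 belong to the regulatory cap. Rpn12 had 162.9 on the combined and 692.2 on the ecdysone array, 4.25-fold lower, and 578.0 on the irradiated and 645.0 on the control array. Rpt2 was at -1.13 and within 2-fold with a common median or the spiked controls.

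Heat shock proteins and chaperones had 18 members, of which 1 was at least 2-fold higher and 2 lower. Their median of -0.16 became 0.35 after scaling to the spiked controls. Over all 28 genes of the list 2 were at least 2-fold higher and 4 lower, with a median of -0.07. Hsp27, a small heat shock protein gene, had 609.3 units on the combined and 227.4 on the ecdysone array, and 342.4 on the irradiated and 44.1 on the control array. Gp93 encodes the Hsp90 of the endoplasmic reticulum. It had 853.7 on the combined and 2632 on the ecdysone array, 3.08-fold lower, against 2020 on the irradiated and 1923 on the control array. The combined array was the low one of the 4 for Gp93. The small heat shock protein relative l(2)efl was at -1.29. The 7 members that encode CCT subunits of the cytosolic chaperonin lay on both sides, from -0.94 for CCT3 to 0.54 for CCT4, and CCT7, under 500 units on both arrays, was at -1.63.

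Cytosolic ribosomal protein genes lay slightly above zero as a group. Of 28 members 27 had a log2 ratio above 0, none was past 2-fold in either direction, and the median was 0.47. The same median was 0.24 without hormone. All members at 8000 units or more had a median of 0.46, and with quantile normalization the list's median was 0.01. The ratios ran from -0.02 for RpL10Ab to 0.93 for RpS5b. RpS30 had 32026 units on the combined and 26065 on the ecdysone array, and RpLP1 had 35010 on the combined and 22736 on the ecdysone array. RpS30 turned to -0.15 with quantile normalization.

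Mitochondrial ribosomal proteins had 16 members of 64 genes, with 3 at least 2-fold higher, none lower and a median of 0.43. The 3 were mRpS6 (at least 5.75-fold), mRpS29 (at least 5.07-fold) and mRpS11 (at least 5.03-fold), and all 3 lay under the floor on the ecdysone array. mRpS29 also had 426.5 units on the irradiated against 54.7 on the control array. Over all 64 genes, 6 were at least 2-fold higher and 11 lower, with a median of 0.00. Translation factors had a median of 0.14, which became -0.05 with quantile normalization, and 2 of 21 were at least 2-fold higher. eIF6, which keeps ribosomal subunits apart, had 893.6 units on the combined and 202.9 on the ecdysone array, and its other probe set was at 1.88. eIF3e, a subunit of the initiation factor eIF3, was at 1.35. Over all 42 translation factor genes 3 were at least 2-fold higher and 3 lower, with a median of 0.00.

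Aminoacyl-tRNA synthetases charge tRNAs with amino acids. Of 8 members, GlnRS (2.84-fold) and SerRS (2.11-fold) were higher and AsnRS (2.61-fold) was lower, with a median log2 ratio of 0.64. Of the 8 members, 5 passed on the combined array alone and so had to be higher there. AsnRS was within 2-fold after scaling to the spiked controls. Over all 29 synthetase genes 5 were at least 2-fold higher and 3 lower, with a median of 0.06. Of 25 ribosome biogenesis genes Fib, which encodes the nucleolar methyltransferase fibrillarin, was the 1 member. It had 1072 units on the combined and 453.5 on the ecdysone array, and 1570 on the irradiated and 2248 on the control array. Both arrays without hormone were above both arrays with it.

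Genes of the respiratory chain and ATP synthase had 43 members, of which 4 were at least 2-fold higher and 1 lower, with a median of 0.23. Over all 65 genes of the list 8 were at least 2-fold higher and 2 lower, with a median of 0.09. ATPsynF, of ATP synthase, had 1480 units on the combined and 524.3 on the ecdysone array, and 1775 on the irradiated and 352.8 on the control array. ND-13A (1.49) and ND-MNLL (1.43) encode subunits of complex I, and the other probe set of ND-MNLL was at 1.34. ND-ASHI, also of complex I, was lower, with 298.2 on the combined and 685.5 on the ecdysone array. It was within 2-fold after scaling to the spiked controls.

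DNA replication genes had more higher than lower members, but not over the whole list. Of 11 members 4 were at least 2-fold higher and none lower, with a median of 0.37. RfC4, of the clamp loader, had 3962 units on the combined and 1092 on the ecdysone array, and 3489 on the irradiated and 2589 on the control array. The ecdysone array was the low one of the 4. RPA3 and RPA1 belong to the complex that coats single-stranded DNA. RPA3 had 1205 on the combined and 356.0 on the ecdysone array, and 1206 on the irradiated and 907.8 on the control array. RPA1 was at 1.29, while its weaker probe set was at -0.34. RnrL, given above, was the fourth. Over all 40 replication genes, 5 were at least 2-fold higher and 7 lower, with a median of 0.00.

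Genes of G2 and mitosis had 7 members and no common direction. trbl, which encodes a pseudokinase that holds cells in G2 by removing String, had 1869 units on the combined and 645.5 on the ecdysone array, and 1553 on the irradiated and 732.6 on the control array. Both irradiated arrays lay above both unirradiated ones for trbl. CycB, the mitotic cyclin B gene, had 354.0 on the combined and 948.5 on the ecdysone array, and 930.5 on the irradiated and 1440 on the control array. The cohesin gene SMC1 was at -1.07. CycB was within 2-fold after scaling to the spiked controls, and SMC1 with these and with a common median. The median of the 7 was -0.30 as deposited. Over another set of members, the list's median was 0.28 with a common median and 0.53 with the spiked controls. These scalings add 0.14 and 0.44, in the same order, to a ratio above the floor. Over all 29 genes of the list 3 were at least 2-fold higher and 4 lower, with a median of 0.00.

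Of the 25 ecdysone response genes 6 reached 500 units. Of these 6 members, 5 were below 0 and 1 was at least 2-fold lower, with a median of -0.65. After scaling to the spiked controls, which adds 0.44 to a ratio above the floor, the list's median was 0.03 over another set of members. Eip93F, a transcription factor gene of late hormone responses, had 338.0 units on the combined and 755.2 on the ecdysone array, and 50.5 on the irradiated and 53.2 on the control array. Eip78C was at -0.96 and the receptor gene EcR at -0.90. Eip93F was within 2-fold after scaling to the spiked controls. ImpL2, a secreted insulin-binding protein gene, was on the higher side at 0.99. Over all 25 genes 2 were at least 2-fold higher and 3 lower, with a median of 0.00. The 2 higher ones, both under 500 units and with the ecdysone array under the floor, were E23 (1.54) and the early transcription factor gene br (1.47).

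The immune list had 9 members, of which 2 were at least 2-fold higher and 1 lower. Tep4, a thioester protein gene, had 4138 units on the combined and 1184 on the ecdysone array, and 1589 on the irradiated and 813.8 on the control array. PGRP-LE, a sensor of bacterial peptidoglycan, had 1157 on the combined and 403.5 on the ecdysone array, and 701.2 on the irradiated and 221.2 on the control array. The 4 antimicrobial peptide genes that reached 500 units lay below 0 as deposited: CecB, a cecropin gene, had 1109 on the combined and 2900 on the ecdysone array, 2.62-fold lower, and 330.4 on the irradiated and 250.4 on the control array. CecB was within 2-fold after scaling to the spiked controls. AttD was at -0.62, Mtk at -0.40 and DptB at -0.08 with hormone, against 0.72, 2.17 and 1.12 without, in the same order. The list's median was -0.40 with hormone and 0.72 without it. It was 1.31 with hormone after scaling to the spiked controls, over another set of members. Under 500 units, the antimicrobial peptide genes Drs and Def were at 0.93 and -0.35. Over all 29 immune genes 4 were at least 2-fold higher and 2 lower, with a median of 0.00.

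Genes of cell death and stress signalling contributed few members. Of 14 cell death genes Debcl, of the Bcl-2 family, was the 1 member, with 614.3 units on the combined and 483.6 on the ecdysone array. The list lacks rpr, hid, Drice and Diap1, which had no probe set of their own here. Of 4 JNK pathway members Gadd45 was at least 2-fold higher, and Jra, the fly Jun gene, was at -0.33; the median was 0.16 and became -0.38 with quantile normalization. Autophagy genes had 4 members, none past 2-fold, among them Atg8a (0.59), which encodes the protein that tags autophagosomes, and its cargo adaptor ref(2)P (0.72). The autophagy median of 0.16 became -0.08 with quantile normalization.

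Metabolic and lysosomal genes were nearly balanced. Of 7 glycolysis members 1 was at least 2-fold lower, Pfk, the phosphofructokinase gene, with 446.9 units on the combined and 1047 on the ecdysone array. The glycolysis median was -0.03, and 0.10 with a common median. Of 21 lysosome and V-ATPase members 1 was at least 2-fold higher and 1 lower, with a median of -0.08 that became 0.05 with a common median. Ids, the gene of a lysosomal sulfatase, had 510.4 on the combined and 153.1 on the ecdysone array, but 1743 on the irradiated and 1671 on the control array. spin, a lysosomal transporter gene, was at -1.28. Of 3 insulin and TOR members chico, the insulin receptor substrate gene, was at -1.35, with a list median of 0.09. Pfk, spin and chico were within 2-fold after scaling to the spiked controls.

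Tetraspanins, small membrane proteins with 4 membrane passes that organize other proteins, had members at both ends. Of 10 members, 4 were at least 2-fold higher and 3 lower, with a median of 0.32. Tsp42Ed had 8161 units on the combined and 1730 on the ecdysone array, 4.72-fold higher, and 3410 on the irradiated and 997.7 on the control array. Tsp26A was at least 5.46-fold higher on the combined array and was at 2.06 without hormone. The 5 members of the Tsp42E gene cluster, to which Tsp42Ed belongs, lay on both sides. Tsp42Eh, named after its values were seen, had 515.3 on the combined and 138.1 on the ecdysone array, while Tsp42Ee was at -0.37. Tsp42Ec had 122.2 on the combined and 761.4 on the ecdysone array, and Tsp42Ef had 156.9 on the combined and 1075 on the ecdysone array. Over all 31 tetraspanin genes 7 were at least 2-fold higher and 6 lower, with a median of 0.00.

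Matrix and adhesion genes had 8 members, of which none was at least 2-fold higher and 2 were lower, with a median of 0.16 that became -0.11 with quantile normalization. Over all 24 genes of the list 3 were at least 2-fold higher and 4 lower, with a median of 0.00. LanA, a laminin chain gene, had 8.6 units on the combined array, against 733.5 on the ecdysone, 412.7 on the irradiated and 712.1 on the control array. The combined array alone was under the floor, and the fold is at least 6.16. LanB2, which encodes a partner chain in the same laminin, was at -0.01. Nrt, a cell adhesion gene, was at -1.17, within 2-fold after scaling to the spiked controls. Actins and tubulins had 6 members, none past 2-fold, from -0.55 for betaTub60D to 0.30 for Act87E; their median was -0.11, and 0.02 with a common median.

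Some marker genes of the hemocyte lineage reached 500 units and others did not. Of 11 such genes 4 were members, at log2 ratios from -0.08 to 0.85: Nplp2, Pxn (peroxidasin) and the collagen IV genes Col4a1 and vkg. Nplp2, the lowest, turned to 0.05 with a common median and 0.36 with the spiked controls. The summed signal over the 11 genes was 14275 units on the combined and 11526 on the ecdysone array. Most of it came from Pxn, with 5558 and 3089 in the same order, and Nplp2, with 5088 and 5384. The scavenger receptor genes crq and Sr-CI lay under the floor on both. Hml, NimC1, eater, srp and Ppn were under 500 units on both, with NimC1 and Ppn under the floor on the ecdysone array. Hml had 240.3 units on the combined and 284.2 on the ecdysone array, and 1110 on the irradiated and 922.6 on the control array. Of neuron, muscle and germline markers none reached 500 units on these 2 arrays, and all 4 germline markers were under the floor on both. Of 5 fat body markers, Lsp2, a larval storage protein gene, was at least 5.43-fold lower, Fbp1 was at 1.42 and Yp2 at 0.64. The other two, under 500 units, were Yp1 (-0.91) and Yp3 (-1.93, with the combined array under the floor), and the median of the 5 was -0.91. Of 5 epidermis markers Cht2 reached 500 units, at 0.13, and it turned to -0.02 with quantile normalization.

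**Figure D3:**
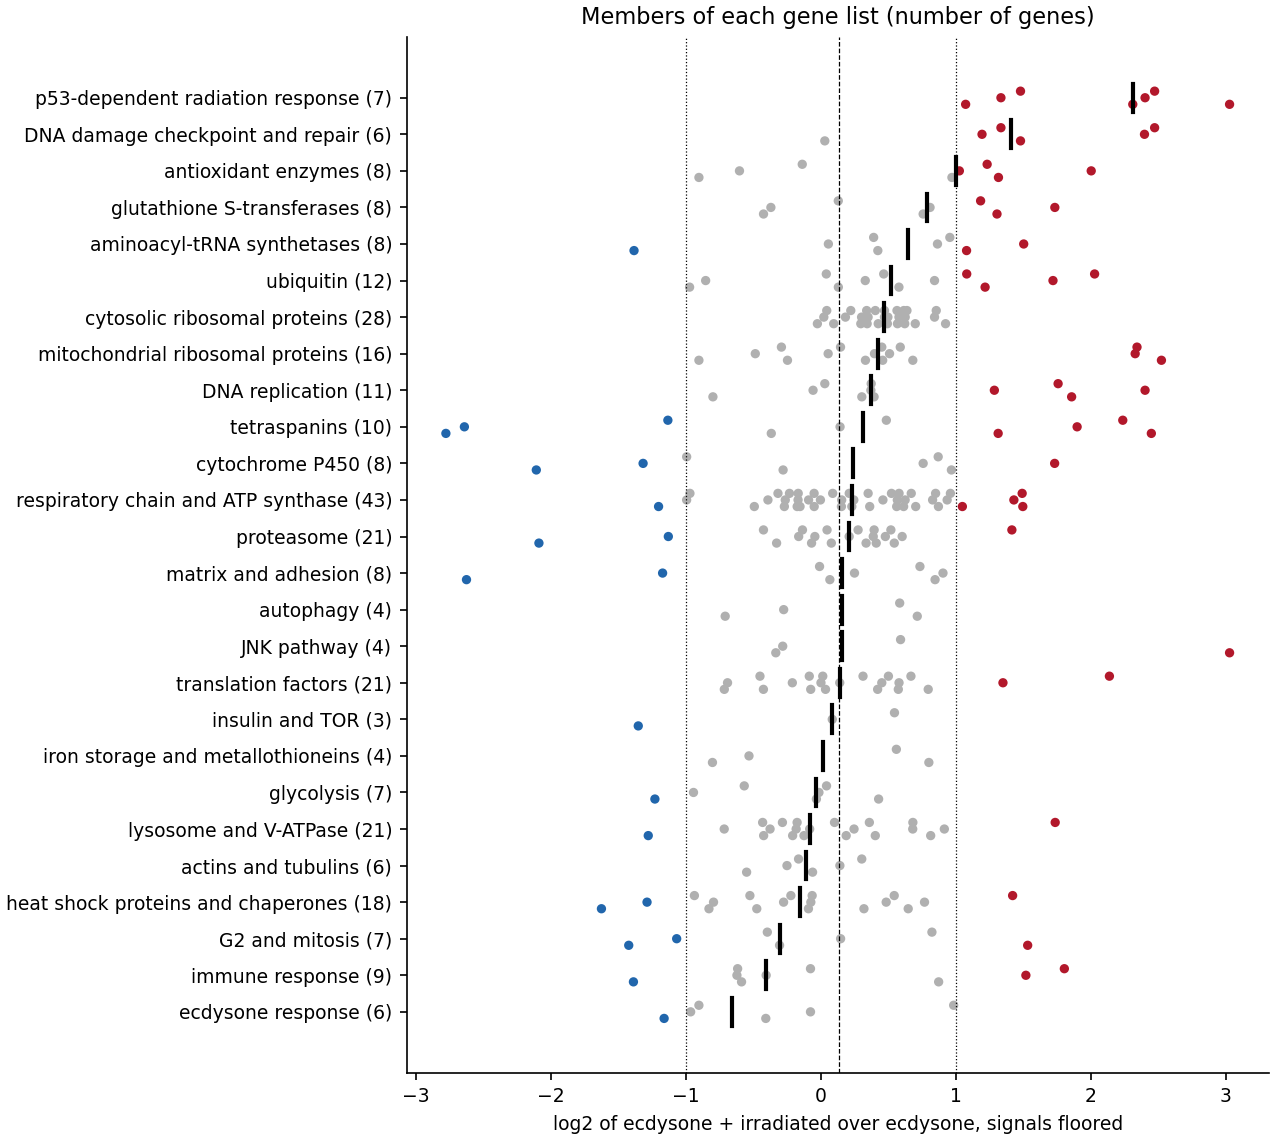
Log2 ratio of combined over ecdysone (horizontal) for each member gene of the gene lists with 3 or more members, markers left out (vertical, with the number of members). Red and blue points are at least 2-fold higher and lower, black bars are list medians, the dashed line is the median of all 1576 genes (0.14) and dotted lines mark 2-fold. The p53-dependent list lies farthest to the right (2.31) and the ecdysone response farthest to the left (-0.65). After scaling to the spiked controls the ecdysone response was at 0.03, over another set of members.

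The 15 genes with the largest ratios were 6.84-fold to 11.9-fold higher on the combined array. In 10 of them the ecdysone array lay under the floor, and in 6 the pair without hormone was also at least 2-fold higher. CG3198 had the largest ratio, with 1641 units on the combined and 138.1 on the ecdysone array, but 481.9 on the irradiated and 395.4 on the control array. JhI-26, known as a gene induced by juvenile hormone, had 898.8 on the combined and 103.2 on the ecdysone array, and 1073 on the irradiated and 109.5 on the control array. Both irradiated arrays of JhI-26 were far above both unirradiated ones. CG2909 had 3505 on the combined and 442.6 on the ecdysone array, and 2125 on the irradiated and 675.4 on the control array.

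Others of the 15 belong to varied processes. wfs1 encodes wolframin of the endoplasmic reticulum membrane and was at least 9.33-fold higher. wash encodes an activator of actin branching on endosomes and was at least 9.10-fold higher. bocks, a gene of the inner nuclear membrane, was 7.37-fold higher, with 550.8 units on the irradiated and 90.7 on the control array. LysS, a lysozyme gene, was at least 7.50-fold higher with hormone and at a log2 ratio of -0.22 without. Nubp2, of the cytosolic assembly of iron-sulfur clusters, was at least 6.84-fold higher. The rest were CG11710 (3.31), CG6701 (3.17), CG11825 (3.04), CG13319 (2.95), CG34324 (2.93) and CG12171 (2.87), beside Gadd45.

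The 15 genes with the smallest ratios were 5.42-fold to 7.80-fold lower on the combined array, with ecdysone signals between 644.7 and 1075. In 10 of them the combined array lay under the floor, and in 3 the pair without hormone was also at least 2-fold lower, namely rk, Lsp2 and Or22c. CG14810 had 46.8 units on the combined and 928.4 on the ecdysone array, and 465.5 on the irradiated and 305.9 on the control array. rk, which encodes the receptor of the tanning hormone bursicon, had 96.2 on the combined and 746.4 on the ecdysone array, and 92.9 on the irradiated and 286.8 on the control array. Irp-1B, an iron regulatory protein gene, had 156.3 on the combined and 907.3 on the ecdysone array. MTF-1, the metal-responsive transcription factor gene, had 136.5 on the combined and 781.9 on the ecdysone array, but its other, weaker probe set was at 1.67. The others were tud (-2.69), Arp10 (-2.60), RapGAP1 (-2.55), CG13008 (-2.55), CG12237 (-2.50) and drd (-2.44), beside LanA, Tsp42Ec and Tsp42Ef. RapGAP1 had 3 further probe sets and CG13008 had 1, all under 500 units, at log2 ratios from -0.41 to 0.80.

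Irradiation without hormone shares no array with irradiation of hormone-treated cells, and it was not used to choose the members. Of the 323 members at least 2-fold higher with hormone, 93 (28.8%) were also at least 2-fold higher without it and 25 (7.74%) were at least 2-fold lower. Of all 1919 members 13.1% were at least 2-fold higher without hormone and 9.07% lower, against 9.32% and 9.81% of all probe sets. The 93 make up 4.85% of the members, against 1.54% of all probe sets, and the 25 make up 1.3% against 1.1%. Of the 228 lower members, 38 (16.7%) were also lower without hormone, which is 1.98% of the members against 1.31% of all probe sets. More of the lower members, 42 (18.4%), were at least 2-fold higher without it, which is 2.19% of the members against 1.22%. Among the 994 members at 500 or more on both arrays, 20 of the 61 higher ones (2.01% of the 994) were higher in both pairs. None of the 61 (0.0%) was at least 2-fold lower without hormone. Of the 16 lower ones there, 2 were lower in both pairs (0.201%) and 4 were higher without hormone (0.402%).

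The ratios of the 2 pairs were weakly related. Across the 1919 members Pearson's r was 0.17 and Spearman's rho 0.17, and across all 13966 probe sets they were 0.05 and 0.04. Probe sets are not independent replicates, and each pair is 2 arrays. The brightest 10 genes past 2-fold the same way in both pairs were 8 higher and 2 lower. CG15784 had 29169 units on the combined and 7127 on the ecdysone array, and 38251 on the irradiated and 12039 on the control array. Nfs1, the mitochondrial cysteine desulfurase that supplies sulfur for iron-sulfur clusters, had 4253 on the combined and 2034 on the ecdysone array, and 3764 on the irradiated and 1787 on the control array. CG10916 was at 1.79 with hormone and 1.49 without, and CG3609 at 1.65 and 1.68. The others were GstD1, Tsp42Ed, Ubi-p63E and CG2909, given above. Nfs1 dropped under 2-fold with quantile normalization.

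The 2 that were lower in both pairs had their higher signals on the hormone arrays. CG5958 had 2276 units on the combined and 5106 on the ecdysone array, and 67.8 on the irradiated and 555.0 on the control array. hll had 1991 on the combined and 4312 on the ecdysone array, and 75.6 on the irradiated and 335.4 on the control array. For both genes the hormone arrays lay above the others, and within each pair the irradiated array was the lower one. CG5958 was within 2-fold after scaling to the spiked controls, and hll with these and with a common median.

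**Figure D4:**
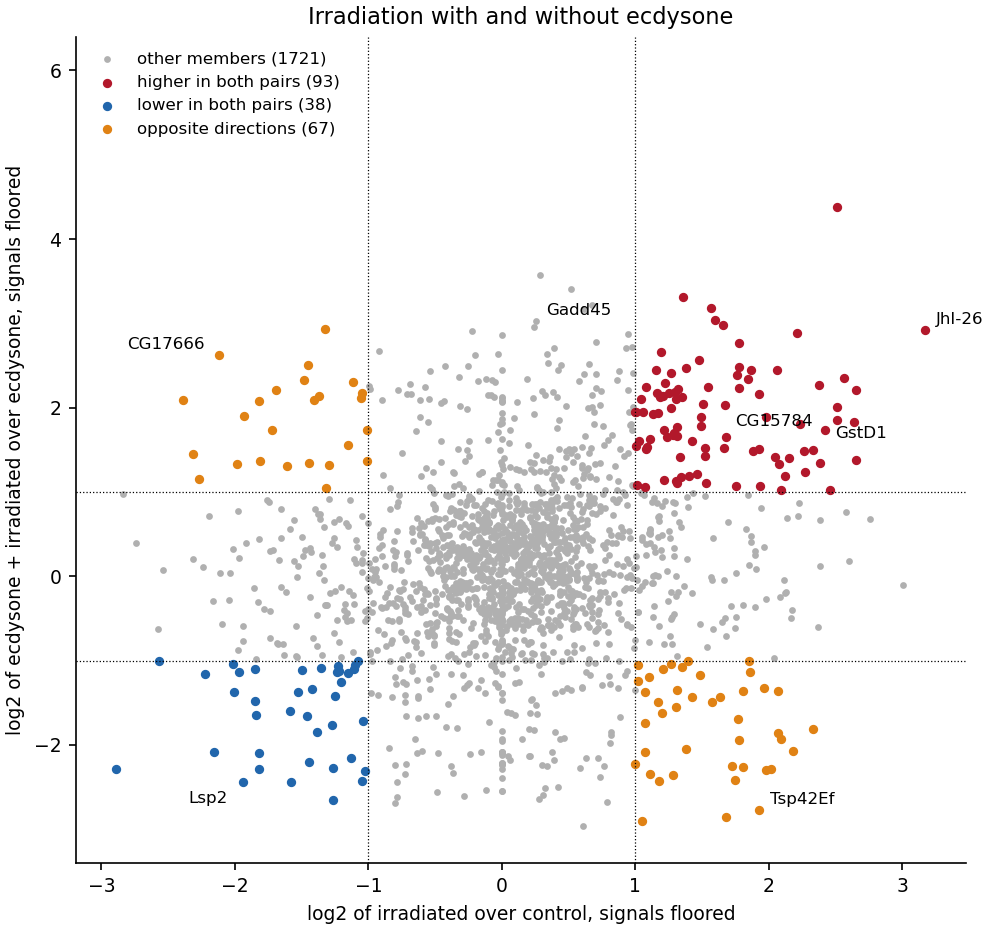
Log2 ratio of combined over ecdysone (vertical) against irradiated over control (horizontal) for the 1919 members, with dotted lines at 2-fold. The 93 members higher in both pairs (red) outnumber the 38 lower in both (blue), and the 67 past 2-fold in opposite directions (orange) fall mostly among those lower with hormone (42 of 67).

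Probe sets of the same gene give a gauge of the measurement on the same arrays. Of 47 genes with several members among the probe sets, 27 (57.4%) had all of them on the same side of 0, and the median range between probe sets of a gene was 0.69 on the log2 scale. In 21 of the 47 at least 1 probe set was past 2-fold, and in 4 all were past it the same way. Those 4, named after their values were seen, were eIF6, ND-MNLL, CG32085 and dysf. The widest gap was in Svil, with probe sets from -2.40 to 2.87.

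Neighbouring genes were also compared, by their order in the genome and not by coordinates. Of 239 pairs of adjacent genes that both had a member, 14 were both at least 2-fold higher, 2 both lower and 8 opposite. Of all 1576 genes among the members, 17.7% were at least 2-fold higher and 12.4% lower. Whether neighbours moved together more often than these shares would give was not tested. The pairs named here were picked after their values were seen. rad50 and its neighbour mRpS29 were at 2.47 and 2.34, and were also both past 2-fold without hormone. Arc1 (1.29) and Arc2 (2.66), which encode capsid-forming relatives of a retrotransposon protein, were both higher. CG18547 (1.95), CG12224 (1.53) and CG3397 (2.56) lie in a row. Tsp42Ec and Tsp42Ed were an opposite pair, at -2.64 and 2.24.

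The signal limit separated probe sets of nearly the same signal. Just inside were CG15247, with 500 units on the combined and 307.3 on the ecdysone array, Pax, with 382.6 and 500.2 in the same order, and org-1, with 500.7 and 101.3. Just outside were CAH1, with 323.3 units on the combined and 499.7 on the ecdysone array, CG5181, with 471.7 and 499.4, and Skel, with 499.4 and 434.0.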

How the data were processed

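RNA of Kc167 cells was hybridized to Affymetrix DrosGenome1 arrays, 1 for each of 4 conditions. The authors deposited 1 signal intensity per probe set and array, computed with MAS5 per the submitters' processing notes; no source used here gives the MAS5 version. The deposited intensities had a trimmed mean of 200.0 on every array (2% left out at each end) and were used as they stand. Of 14010 probe sets 44 controls were left out. Symbols came from the platform annotation, updated through gene identifiers with the RefSeq table of Release 6 plus ISO1 MT. A gene was represented by its brightest member probe set.

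Signals under 119 were raised to 119 before log2 ratios were taken, and 2-fold was used as a size limit without a test. Named genes followed a rule: the 15 largest ratios in each direction, up to 4 members of each of 34 lists (the 2 brightest where none was past 2-fold), the 10 brightest past 2-fold the same way in both pairs, the 5 largest differences between pairs in each direction, and the 3 probe sets on each side of the signal limit. Further list members, named as range ends or for their role (p53, PCNA, GstO2, GstO3, Cat, Sod2, Men, EcR, Eip78C, CCT3, CCT4, Jra and others), were chosen after their values were seen. The members and lists were chosen with earlier results of these data known. Alternatives were other scalings, floors, signal limits and folds; scaling to the spiked controls and a signal limit on both arrays were added after seeing the data. Counting was tested on simulated data: a copy of the ecdysone array in which some probe sets were multiplied by set factors. No noise was added, so the test checks the counting alone and does not gauge differences between separate arrays. The number of arrays limits the precision. Tables were handled with pandas 2.3.3 and numpy 2.4.6 under Python 3.11.15, and figures were drawn with matplotlib 3.10.9.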

Additional observations from a re-analysis of the deposited data

Results flagged for a closer look

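In 12 named genes the pair with hormone and the pair without it were both past 2-fold, in opposite directions. With 1 array a condition the difference between the pairs was not tested. The difference is the log2 ratio of combined over ecdysone minus that of irradiated over control. Where an array lay under the floor the difference is at least the size given.

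In 6 genes the combined array was higher than the ecdysone array while the irradiated array was lower than the control array. The difference was 4.75 for CG17666, with 735.3 units on the combined and 114.2 on the ecdysone array, and 136.5 on the irradiated and 594.2 on the control array. It was 4.48 for l(1)G0469, 4.25 for CG34324, 3.96 for 7B2, which encodes a helper of neuropeptide processing, and 3.90 for CG10737. In these 5 the ecdysone array lay under the floor, and for l(1)G0469 the irradiated array did too. l(1)G0469 and 7B2 each had another probe set, under the floor on every array and so at 0.00 in both pairs. The difference was 3.83 for the tetraspanin gene Tsp42Eh, with 147.3 units on the irradiated and 561.1 on the control array.

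In 6 genes the order was the opposite. The difference was -4.71 for the tetraspanin gene Tsp42Ef, with 561.5 units on the irradiated and 147.4 on the control array. It was -4.30 for rdgA, a diacylglycerol kinase gene, -4.28 for Ars2, which acts in RNA processing, -4.26 for the chitin deacetylase gene Cda4 and -4.17 for beat-IIb. The combined array of these 4 lay under the floor, and the control array of rdgA, Cda4 and beat-IIb did too. It was -2.30 for the complex I gene ND-ASHI, with 598.8 units on the irradiated and 278.9 on the control array. Other probe sets of rdgA, Ars2, Cda4 and beat-IIb were under 500 units on both hormone arrays, and the brightest of those of rdgA was at 1.91.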

How the results depend on the processing

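Without replicates, only sizes limit what can be said, and most depend on the signal limit. No paired analysis was possible because each condition had 1 array. In the order higher with hormone, lower with hormone, higher in both pairs and lower in both pairs, the counts of 323, 228, 93 and 38 became 1111, 1240, 205 and 172 at a signal limit of 250. They were 101, 27, 37 and 2 at a limit of 1000, 61, 16, 20 and 2 with 500 required on both arrays, 565, 379, 204 and 105 at 1.5-fold, 178, 115, 24 and 7 at 3-fold, and 788, 93, 156 and 14 after scaling to the spiked controls. The count lower in both pairs was 21 with a common median and 20 with a floor of 250. Floors of 42 and 250 cannot move the counts of the hormone pair, since each member has a signal of 500 or more.

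Of 245 recomputed list medians, 223 moved by less than 1.5-fold, 21 by more, and 1 turned: ribosome biogenesis was at -0.35 at a limit of 250, where 11 genes passed in place of 1. The p53-dependent median was 1.34 with a floor of 250 and 1.34 at a limit of 1000. At a limit of 250, P450 enzymes were at -0.89, DNA replication at -0.29, fat body markers at -0.91 and epidermis markers at -0.52. At a limit of 1000, repair was at 0.68, replication at 1.52, G2 and mitosis at 1.53, tRNA synthetases at 0.057, JNK at 3.03 and tetraspanins at -0.37. With a common median, P450 enzymes were at 0.90 and G2 and mitosis at 0.28. With the spiked controls, P450 enzymes were at 1.20, G2 and mitosis at 0.53, iron storage at 1.00, immune response at 1.31, ecdysone response at 0.03, JNK at 1.03 and tetraspanins at 1.16. Here other probe sets also entered or left, and the cause of each move was not tested.

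Of 101 named genes past 2-fold, 96 kept size and direction with a common median, 95 with quantile normalization and 83 with the spiked controls. rdgA turned to 2.19 with the spiked controls, where another of its probe sets was the brightest. The agreement of probe sets of 1 gene, the share of genes with all probe sets on the same side of 0, was 57.4%, and 48.8% to 72.7% under 7 alternatives added after seeing the data.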

Other observations

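Several probe sets past 2-fold at 500 units or more on both arrays have not been described above; they were picked after their values were seen. BI-1, which encodes a relative of the mammalian Bax inhibitor, had 2541 units on the combined and 657.1 on the ecdysone array, and 1496 on the irradiated and 929.1 on the control array. kek1, the gene of a membrane protein that dampens the EGF receptor, had 2328 on the combined and 584.3 on the ecdysone array, and 2050 on the irradiated and 853.2 on the control array. Mvl, a divalent metal transporter gene, had 1701 on the combined and 557.0 on the ecdysone array, and 1022 on the irradiated and 588.9 on the control array. Wdr82 was at a log2 ratio of 1.37 with hormone and 2.65 without.

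CIAPIN1, of the cytosolic assembly of iron-sulfur clusters, had 1905 units on the combined and 587.0 on the ecdysone array, and 1120 on the irradiated and 458.4 on the control array. SdhB, the iron-sulfur subunit of complex II, had 3758 on the combined and 1815 on the ecdysone array, but 1954 on the irradiated and 2390 on the control array. A clock gene, cyc, was at 1.18 with hormone and 0.66 without.

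A probe set with no gene symbol had 40434 units on the combined and 14147 on the ecdysone array, and 19730 on the irradiated and 13595 on the control array. Of 241 members with no symbol, 25 were at least 2-fold higher and 14 lower. These are smaller shares than the 16.8% and 11.9% of all 1919 members, in the same order.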
